A study of Mus musculus with 3 samples.

Results

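Atrial-like cardiomyocytes were picked out of droplet single-cell RNA libraries of mouse heart by genes that most other droplets lacked. A member was a cell with 1 or more UMIs (molecular identifiers, 1 per transcript captured) in at least 4 of the 7 genes Fgf12, Tmem163, Ryr3, Rxfp1, Rgs6, Pdzrn4 and Kcnh7, and with more of these detected than of the 6 ventricular genes Adra1a, Myh7b, Fhl2, Kcnip2, Hs3st5 and Gm32171. The rule found 733 of 27497 cells: 317 in the isotype library, 355 in the library titled PD1/PEM and 61 in the library titled PDL1/ATZ. Nppa, Myl7, Myl4, Sln and Bmp10, the atrial genes most often used as markers, took no part in the rule.

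The hearts came from NOD/SCID mice, whose T and B lymphocytes are not functional, and all 3 groups shared that genotype. Animals received an isotype control antibody, an antibody against PD-1 or an antibody against its ligand PD-L1 on days 0 and 7, and hearts were taken on day 14. Each group was 1 library made from 3 pooled hearts, so animals could not be told apart and no group had a replicate. The titles and the treatment tags of the antibody libraries name opposite agents (the library titled PD1/PEM is tagged Atezolizumab and the one titled PDL1/ATZ is tagged Pembrolizumab), so titles serve here as names only and no antibody is assigned to either. No test between libraries was possible. Every interval below is a 95% interval that covers counting error only, and none of them covers variation between hearts.

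The atria fill the ventricles and act as an endocrine organ: atrial myocytes store natriuretic peptides in granules and release them on stretch. They also carry the muscarinic receptor CHRM2 and the acetylcholine-gated potassium channel built from KCNJ3 and KCNJ5, through which the vagus nerve slows the heart, and RGS proteins shorten that signal. The transcription factor TBX5 is needed for the identity and rhythm of atrial myocytes.

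The 3 libraries differed in ways that touch the members. The median member held 2651 UMIs in the isotype library, 3591 in PD1/PEM and 2538 in PDL1/ATZ, against 1487, 1893 and 1006 in the cells that were neither atrial-like nor ventricular-like, called the other cells below. Ventricular-like cells, found by the mirror of the rule (at least 4 of the 6 ventricular genes and more of these than of the atrial genes), numbered 152, 210 and 34, with medians of 3306.5, 3916.5 and 3200 UMIs. The members' median share of mitochondrially encoded UMIs was 24.5% and 24.6% in isotype and PD1/PEM and 5.58% in PDL1/ATZ, a library that stood apart in this share and in which gene symbols were read at all. Summed over members the UMIs came to 904575, 1318055 and 159446. Isotype and PD1/PEM shared 23 cell barcodes, of which 0 were members, and PDL1/ATZ shared 0 with either.

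Members made up 3.33% of isotype cells (exact Clopper-Pearson interval 2.98 to 3.71), 5.56% of PD1/PEM cells (5.01 to 6.15) and 0.526% of PDL1/ATZ cells (0.402 to 0.675). A rule that counts detected genes follows depth. When each cell was thinned at random to 1000 UMIs and shallower cells were left out (1784, 532 and 5677 cells), the shares were 0.777% (60 of 7726 cells, 0.593 to 0.999), 1.08% (63 of 5856, 0.828 to 1.37) and 0.304% (18 of 5922, 0.180 to 0.480). At equal depth the isotype and PD1/PEM intervals overlapped, and the share of PDL1/ATZ stayed below both. These are shares of captured cells, not of the cells of a heart.

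Most members sat close to the threshold. Exactly 4 of the 7 genes were detected in 238 isotype members (75.1%), 201 PD1/PEM members (56.6%) and 32 PDL1/ATZ members (52.5%). All 7 genes were detected in 0, 6 and 1 cells. Just outside the rule lay 547, 328 and 107 cells with 3 atrial genes and more of these than of the ventricular genes, whose medians of 2028, 2788 and 1855 UMIs compare with 2567, 3283 and 1642.5 UMIs in the members with 4. Another 2, 7 and 0 cells had 4 or more atrial genes but at least as many ventricular ones. At the other extreme, 81, 75 and 18 members had no ventricular rule gene at all.

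The rule genes themselves are given as a description, because they chose the cells. Fgf12, which encodes an intracellular fibroblast growth factor homologue that tunes sodium channels, reached 1953 CPM (counts per 1000000 of the summed UMIs of the cells in question) in isotype members, 2682 in PD1/PEM and 2559 in PDL1/ATZ. It had a UMI in 96.5%, 97.5% and 90.2% of members. The same gene had a UMI in 32.1%, 30.7% and 8.61% of the other cells. In endothelial-marker cells, whose median depths were 1638, 1912 and 1091 UMIs, the shares were 20.6%, 18.3% and 5.95%. Those cells carried at least 4 endothelial markers, at most 1 atrial rule gene and at most 1 ventricular rule gene. That cap on rule genes lowers their Fgf12 share in advance. Rgs6, which ends muscarinic signalling in the heart, lay at 951, 1168 and 1869 CPM. Ryr3, a calcium release channel, lay at 1365, 576 and 665 CPM, so that the isotype level was the highest of the 3. Rxfp1, the relaxin receptor, lay at 63.0, 136 and 213 CPM, and Tmem163, a zinc transporter of vesicles, at 145, 299 and 508 CPM, both lowest in isotype. Rgs6 had a UMI in 85.5%, 91.0% and 90.2% of members and Pdzrn4 in 75.4%, 85.9% and 82.0%, so these genes and Fgf12 were detected in most members of every library. The levels of Ryr3, Rxfp1 and Tmem163 differed more, and any comparison of libraries below sets cells chosen by unequal mixtures of the same 7 genes side by side.

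The atrial genes that the rule left out were measured next. All of those with enough UMIs to compare (5 of 5, 4 of 5 and 4 of 5) were higher in members than in ventricular-like cells, where 51.5%, 52.6% and 49.4% of all tested genes were higher. Nppa, the precursor of atrial natriuretic peptide, lay at 3403, 1304 and 1248 CPM in isotype, PD1/PEM and PDL1/ATZ members and at 2375, 867 and 846 CPM in the ventricular-like cells of the same libraries. The ratios were 1.43 (interval 1.34 to 1.53), 1.5 (1.38 to 1.64) and 1.47 (1.15 to 1.91), so the Nppa difference between the classes was much the same size in each library. Myl4, the atrial essential light chain of myosin, differed by 1.63-fold (1.46 to 1.84), 1.94-fold (1.72 to 2.18) and 2.29-fold (1.64 to 3.24). Myl7, the atrial regulatory light chain, differed by 1.13-fold (0.999 to 1.28), 1.42-fold (1.25 to 1.62) and 1.32-fold (0.917 to 1.92), and only the PD1/PEM interval kept clear of 1. Sln, which encodes the calcium pump inhibitor sarcolipin, differed by 1.23-fold (1.04 to 1.45), 1.22-fold (1.02 to 1.47) and 1.45-fold (0.831 to 2.60). Bmp10, a growth factor of the atrial and trabecular myocardium, had 110 UMIs in isotype members against 26 in ventricular-like cells, a ratio of 2.46 (1.59 to 3.92), and 30 against 4 in PD1/PEM, a ratio of 4.84 (1.71 to 18.9), with 1 against 0 in PDL1/ATZ. The median log2 ratio of the 5 genes was 0.52, 0.59 and 0.56. Without the cells with the most UMIs, which left 28 members and 8 ventricular-like cells in PDL1/ATZ, it was 0.025 there, and with at least 5 rule genes it was 0.32 in isotype.

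Against all the other cells the same 5 genes did not mark the members out. Nppa was at 3468, 1060 and 1972 CPM in the other cells, and the ratio of members to other cells was 0.98, 1.23 and 0.63. A UMI of Nppa was present in 98.9%, 84.9% and 90.2% of the endothelial-marker cells, which should not make it. The level of Nppa in those endothelial-marker cells (3523, 1052 and 1916 CPM) was above that in members in isotype and PDL1/ATZ. Myl7 and Sln were also at higher levels in endothelial-marker cells than in members in isotype (992 against 831 CPM for Myl7, 570 against 504 CPM for Sln) and in PDL1/ATZ (757 against 564 CPM and 373 against 263 CPM). A level at or below that of cells that should lack the gene is not read here as expression by the members. Only Myl4 and Bmp10 had higher levels in members than in the other cells in all 3 libraries, at ratios of 1.17, 1.45 and 1.16 (0.981 to 1.35 in PDL1/ATZ) for Myl4 and of 1.61, 3.26 and 1.70 for Bmp10, the last resting on 1 UMI.

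Other genes separated the members further from ventricular-like cells. The genes named here had the highest and the lowest ratios of members to ventricular-like cells, ranked by the interval bound nearest to 1 in the least favourable library. In the isotype library 85 of 4101 tested genes (2.07%) were at least 2-fold higher in members and 117 (2.85%) at least 2-fold lower. The PD1/PEM library gave 143 of 5569 (2.57%) and 120 (2.15%), and PDL1/ATZ 44 of 955 (4.61%) and 64 (6.70%). A gene was tested when it had at least 50 UMIs over both classes. The rule fixed these cells by other genes of the same libraries, so the values describe the members and test nothing.

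Kcnj3 (chromosome 2, bases 55435970 to 55598145 of GRCm38), a subunit of the acetylcholine-gated potassium channel, lay at 348, 1206 and 1568 CPM in members and at 124, 256 and 273 CPM in ventricular-like cells. Its ratios were 2.81 (2.15 to 3.73), 4.71 (4.08 to 5.45) and 5.74 (3.92 to 8.69). Tbx5 (chromosome 5, bases 119832668 to 119885219), the atrial transcription factor, lay at 158, 277 and 295 CPM against 57.1, 31.7 and 27.3 CPM. The list of cardiac transcription factors to which Tbx5 belongs did not separate the classes. Of its tested genes 5 of 13, 6 of 13 and 5 of 10 were higher in members, with median log2 ratios of -0.06, -0.06 and -0.03. Pam (chromosome 1, bases 97795114 to 98095646), an amidating enzyme that is abundant in the membrane of atrial granules, was the most abundant gene in the group, at 4440, 3611 and 4923 CPM against 1636, 973 and 719 CPM. Kcnj3, Tbx5 and Pam were higher in members in every library, and the intervals of members and ventricular-like cells did not overlap in any of the 3 libraries.

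The other genes among the 10 highest included receptors, ligands and signalling proteins. Erbb4, a neuregulin receptor, was at 1659, 2301 and 2753 CPM, which is 2.86, 3.36 and 5.50 times the ventricular-like level. Slit3, a secreted guidance ligand, was 3.18, 4.18 and 3.02 times higher. Rgs7, a relative of Rgs6, was 4.02, 5.35 and 11.7 times higher, and Phkg1, a catalytic subunit of phosphorylase kinase, 3.22, 2.80 and 7.06 times. Lrrc4c, a netrin-G ligand of the cell surface, ranked first by that bound, with 283, 384 and 684 CPM in members and 41.9, 36.4 and 18.2 CPM in ventricular-like cells. The PDL1/ATZ ratios of Rgs7 and Lrrc4c rest on 2 UMIs each in the ventricular-like cells. Rp1 and Lmntd1 completed the 10 highest.

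The 10 lowest genes were Tacc2, Prdm16, Fgf13, Pde4d, Prune2, Cpeb3, Neat1, Limch1, Homer2 and Itpr2. Tacc2 was at 587, 359 and 238 CPM in members against 2297, 1419 and 1001 CPM, at a ratio of 0.26, 0.25 and 0.24. Prdm16, a transcriptional regulator of ventricular compact myocardium in mice, was at 46.4, 36.4 and 37.6 CPM against 164, 232 and 273 CPM. Pde4d, a phosphodiesterase that degrades cyclic AMP near calcium channels, was at 1419, 1227 and 1505 CPM against 3454, 3313 and 4897 CPM. Fgf13, a homologue of the rule gene Fgf12, went the other way from it, at ratios of 0.38, 0.34 and 0.30.

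Genes grouped by function are given by their counts and medians. Of 19 further atrial genes, 10, 14 and 4 had enough UMIs to be tested, and 7, 12 and 4 of them were higher in members, 6, 10 and 4 by at least 1.5-fold, where 8.0%, 8.12% and 14.5% of all tested genes were that much higher. Among them Chrm2, the muscarinic receptor, was at 1603, 2740 and 3713 CPM in members against 804, 1468 and 1720 CPM. Mybphl, a myosin-binding protein enriched in atria, was 2.14-fold (1.41 to 3.35), 5.49-fold (3.44 to 9.21) and 3.67-fold (1.05 to 19.7) higher. All tested genes of the muscarinic and potassium channel list were higher in members in each library (4 of 4, 6 of 6 and 3 of 3), with median log2 ratios of 0.99, 0.96 and 1.11 where the median of all tested genes was 0.01, 0.02 and -0.01. The rule gene Rgs6 is also on that list and was left out of these counts and medians.

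Genes of ventricular identity and of energy control lay lower in members. Myl2, the ventricular regulatory light chain, was at 1076, 715 and 590 CPM against 1432, 1109 and 1620 CPM. Its ratio of members to the other cells was 0.77, 0.80 and 0.55. Cells with no rule gene of either kind had 1369, 868 and 1084 CPM. The isotype ventricular-like level of Myl2 thus lay close to that of cells without rule genes. Of the ventricular list, 5 of 5, 4 of 5 and 4 of 5 tested genes were lower in members. By at least 1.5-fold 1, 3 and 4 of them were lower, where 9.51%, 7.49% and 15.7% of all tested genes were that much lower. Pln, phospholamban, on this list and the calcium handling list, had ratios of 0.76, 0.57 and 0.40. The L-type calcium channel gene Cacna1c, of the calcium handling list, had 0.56, 0.39 and 0.29. The calcium handling list was mixed, with 7 of 15, 6 of 16 and 5 of 13 tested genes higher in members. Of all tested genes in the 3 libraries 51.5%, 52.6% and 49.4% were higher. The calcium handling list had median log2 ratios of -0.09, -0.10 and -0.22. Ppargc1a, a coactivator that drives mitochondrial gene programmes, was at 1658, 1071 and 295 CPM in members against 4349, 1657 and 546 CPM. Of its list of nuclear receptors and coactivators, 8 of 10, 9 of 11 and 4 of 4 tested genes were lower in members, 6, 5 and 4 of them by at least 1.5-fold, where 9.51%, 7.49% and 15.7% of all tested genes were that much lower. Nuclear-encoded genes of the respiratory chain showed little difference in the isotype and PD1/PEM libraries, with median log2 ratios of -0.01 and -0.11 over 33 and 34 tested genes.

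Genes of the shared contractile apparatus did not separate the classes in isotype and PD1/PEM. The median log2 ratio of the 22 sarcomere genes was 0.06 and 0.00 there, with 13 and 11 of 22 higher in members. Of all tested genes 51.5% and 52.6% were higher in members there, and 49.4% in PDL1/ATZ. In PDL1/ATZ the median was -0.48 and 16 of 21 tested genes were lower. Ttn, which encodes titin, showed this most plainly, with 15907 and 14657 CPM in isotype and PD1/PEM members against 16870 and 16175 CPM in ventricular-like cells, but 6234 CPM in PDL1/ATZ members against 14373 CPM. Set against the same shares, 10 of 11 tested stretch-responsive genes were higher in isotype members, 8 of 11 in PD1/PEM and 3 of 6 in PDL1/ATZ. Their median log2 ratios were 0.52, 0.30 and -0.23. In PDL1/ATZ the other 3 were lower by at least 1.5-fold, where 15.7% of all tested genes were that much lower. In isotype Flnc (filamin C, an actin crosslinker of the Z-disc) was 4.0-fold (3.31 to 4.87) and Ankrd1, a titin-bound stress protein, 1.98-fold (1.79 to 2.20) higher in members.

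**Figure D1:**
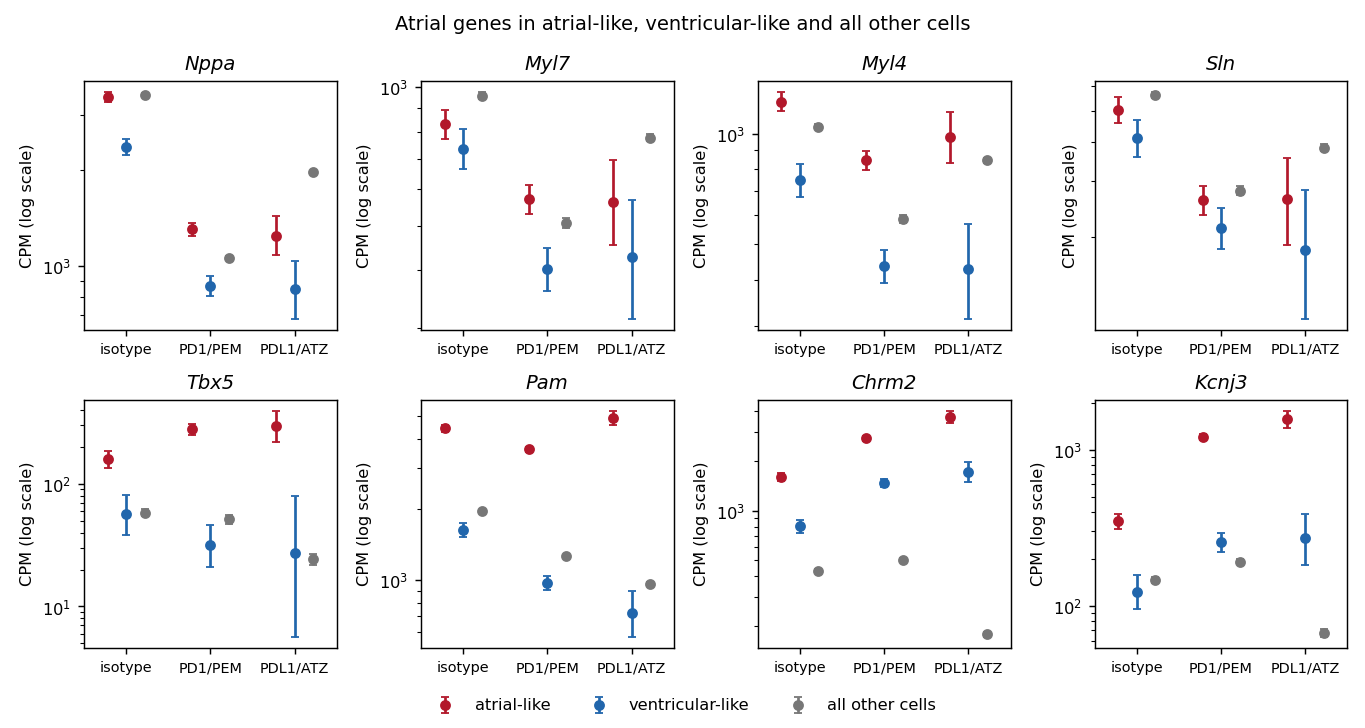
Levels in CPM (log axis) of 8 atrial genes in atrial-like (red), ventricular-like (blue) and other cells (grey) of each library; bars are 95% Poisson intervals. Nppa, Myl7 and Sln in members lay at or below the other cells in isotype and PDL1/ATZ, whereas Tbx5, Pam, Chrm2 and Kcnj3 were highest in members in all 3 libraries.

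The number of rule genes in a cell also tracked genes outside the rule. Among cells with more atrial than ventricular rule genes, or none of either, Chrm2 lay at 289 CPM in isotype cells with 0 atrial rule genes, 891 in those with 3, 1376 in those with 4 and 2215 in those with 5 to 7. In PD1/PEM the same steps gave 310, 1250, 2033 and 3480 CPM, and in PDL1/ATZ 121, 676, 2068 and 4958 CPM. Kcnj3 went from 139 to 364 CPM in isotype, from 136 to 1507 CPM in PD1/PEM and from 57.5 to 2192 CPM in PDL1/ATZ between cells with 0 and with 5 to 7 rule genes. Cells with 3 rule genes, just outside the rule, thus lay between the cells with none and the members. Nppa went up with the rule genes in PD1/PEM, from 1002 to 1320 CPM, but down from 3664 to 2967 CPM in isotype and from 2171 to 1311 CPM in PDL1/ATZ. Depth went the same way as the rule genes (medians from 1116 to 2987 UMIs in isotype), and its part in these levels was not tested.

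**Figure D2:**
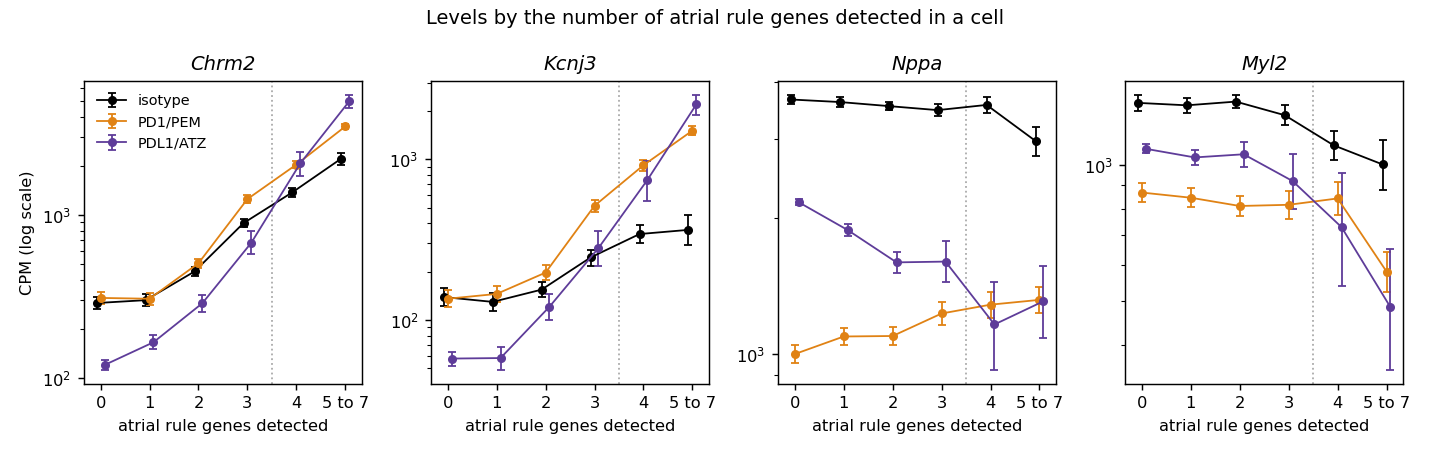
Level in CPM (log axis) of Chrm2, Kcnj3, Nppa and Myl2 against the number of the 7 atrial rule genes detected in a cell, for the 3 libraries; bars are 95% Poisson intervals and the dotted line marks the threshold of the rule. Chrm2 and Kcnj3 were higher with each further step from 2 genes on in all libraries, while Nppa between 0 and 5 to 7 genes went from 3664 to 2967 CPM in isotype, from 2171 to 1311 CPM in PDL1/ATZ and from 1002 up to 1320 CPM in PD1/PEM.

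Single members varied widely. In isotype members the median Nppa level was 31.2 per 10000 UMIs and the highest member had 478. PD1/PEM members had a median of 11.3 and a maximum of 104, and PDL1/ATZ members 11.2 and 97.6. Chrm2 had medians of 11.4, 23.9 and 23.9 per 10000 UMIs and maxima of 90.6, 109 and 160. Kcnj3 was absent from the median isotype member and lay at 8.09 and 10.6 per 10000 UMIs in the median PD1/PEM and PDL1/ATZ member. For each of these genes taken alone, the lowest member of every library had 0 UMIs, so the ranges of the libraries overlapped.

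Markers of other cell types were present in nearly all members. At least 3 markers of 1 other class were detected in 96.8%, 98.9% and 95.1% of members, and in 91.0%, 97.4% and 95.9% of the other cells. All 10 endothelial markers were present, with summed levels of 2655, 3205 and 4246 CPM in members against 3642, 4581 and 7958 CPM in the other cells. The 10 fibroblast markers summed to 3336, 3709 and 2521 CPM, against 4429, 4964 and 3945 CPM. Lymphocyte markers summed to 6.63, 6.07 and 12.5 CPM, with Cd79b, Nkg7 and Klrb1c at 0 in the members of all 3 libraries. Of the pacemaker and conduction markers, which share several genes with atrial myocytes, 13, 13 and 12 of 14 had UMIs in members. They summed to 287, 338 and 533 CPM in members and 213, 216 and 255 CPM in ventricular-like cells. The other cells had 332, 316 and 382 CPM. At least 3 of them were detected in 2.52%, 10.4% and 11.5% of members and in 5.26%, 3.33% and 2.94% of ventricular-like cells. In the shallower other cells the shares were 1.54%, 2.70% and 1.30%. Isl1 was at 0 in the members of all 3 libraries, and Hcn4, the pacemaker channel, had 4, 5 and 0 UMIs. The part of other cells' RNA in the members' profiles was not tested.

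PD1/PEM and isotype members were then compared for all 5670 genes with at least 50 UMIs over both. Natriuretic and stretch-responsive genes (Nppa, Nppb, Bmp10, Flnc) were lower in PD1/PEM, and immediate early genes (Egr1, Egr3, Nr4a1), Angpt1 and the potassium channel genes Kcnj3, Kcnn2 and Kcnd2 were higher. Of these genes 50.5% were higher and 49.5% lower in PD1/PEM. At least 2-fold higher were 133 genes (2.35%) and at least 2-fold lower 73 genes (1.29%). The ventricular-like cells gave 84 (2.10%) and 66 (1.65%) of 3994 genes, so the members' shares stood close to those of the comparison cells. Each member gene below is set beside its ratio in ventricular-like and in other cells. Of the 20 genes farthest apart 19 lay on the same side of 1 in ventricular-like cells, and none is called particular to the members. Isotype members were shallower and carried fewer rule genes than PD1/PEM members, so log2 ratios are also given for members with at least 5 of the 7 genes (79 and 154 cells) where these lay outside the interval of the ratio in all members.

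The natriuretic peptides and Bmp10 stood among the genes farthest below isotype. Nppa was at 3403 CPM in isotype and 1304 CPM in PD1/PEM members, 2.61-fold lower (2.46 to 2.77). It was 3.27-fold lower in the other cells, and 3523 against 1052 CPM in endothelial-marker cells, which should not make it. Nppb, which encodes the B-type peptide, was at 222 and 47.0 CPM, 4.72-fold lower (3.54 to 6.39), and 6.57-fold lower in the other cells. Bmp10 was at 122 and 22.8 CPM, 5.34-fold lower (3.54 to 8.29), and 10.8-fold lower in the other cells, with 80.3 and 5.30 CPM in endothelial-marker cells. In members with at least 5 rule genes the log2 ratio of Nppa was -1.17 in place of -1.38 and that of Nppb -1.82 in place of -2.23. After thinning the log2 ratio of Bmp10 was -3.60 in place of -2.40. The part of other cells' RNA in these differences was not tested.

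Because these 3 genes were lower together, and Kcnj3 was higher, the 250 bases upstream of their transcription starts are given 5′ to 3′ on the plus strand, from RefSeq (GRCm38.p6). They lie at chr4:148000472-148000721 (Nppa), chr4:147985650-147985899 (Nppb), chr6:87428744-87428993 (Bmp10) and chr2:55435720-55435969 (Kcnj3). Capitals mark matches, on either strand, to the T-box site TCACACC, the NK2 homeobox site TNAAGTG, the GATA site AGATAA and the TEAD site CATTCC.
Nppa: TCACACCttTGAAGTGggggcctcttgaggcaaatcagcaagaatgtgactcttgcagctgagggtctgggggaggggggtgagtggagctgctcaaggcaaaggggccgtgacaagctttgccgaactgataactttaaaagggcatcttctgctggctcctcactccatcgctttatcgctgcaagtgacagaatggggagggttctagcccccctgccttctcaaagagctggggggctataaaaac
Nppb: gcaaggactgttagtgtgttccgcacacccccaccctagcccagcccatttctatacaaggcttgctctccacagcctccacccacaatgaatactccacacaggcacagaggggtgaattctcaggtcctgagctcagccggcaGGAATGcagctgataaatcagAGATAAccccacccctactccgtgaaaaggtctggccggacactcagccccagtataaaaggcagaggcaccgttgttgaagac
Bmp10: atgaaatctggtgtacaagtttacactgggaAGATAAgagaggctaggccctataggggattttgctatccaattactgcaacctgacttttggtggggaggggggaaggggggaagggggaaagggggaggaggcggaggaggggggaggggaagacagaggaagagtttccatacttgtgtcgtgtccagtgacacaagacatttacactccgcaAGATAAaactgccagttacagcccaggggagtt
Kcnj3: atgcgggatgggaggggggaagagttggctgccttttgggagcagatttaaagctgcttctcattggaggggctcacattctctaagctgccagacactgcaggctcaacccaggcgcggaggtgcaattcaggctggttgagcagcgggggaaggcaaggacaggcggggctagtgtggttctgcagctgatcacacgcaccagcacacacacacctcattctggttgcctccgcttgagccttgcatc
Of 27025 promoter windows of this length, 3.31% held the T-box letters, 10.0% the NK2 letters, 10.3% the GATA letters and 12.6% the TEAD letters. The Nppa window held the T-box letters at its far end, 250 to 244 bases upstream, next to NK2 letters at 241 to 235. The Nppb window held GATA letters 84 to 79 bases upstream and the TEAD letters on the minus strand at 105 to 100, and the Bmp10 window held GATA letters at 219 to 214 and at 33 to 28. No match overlapped another. The Kcnj3 window held none of these letters.

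Other stretch-responsive and Z-disc genes were lower as well. Flnc was at 953 CPM in isotype and 252 CPM in PD1/PEM members, 3.78-fold lower (3.33 to 4.31), against a ratio of 0.48 in ventricular-like cells and 0.34 in the other cells. Xirp2, which binds actin at the intercalated disc, was 2.13-fold lower (1.94 to 2.35), and Nrap, an actin anchor of the same structure, 2.04-fold lower (1.82 to 2.28). Enah, an actin assembly protein, was at 1002 and 380 CPM, 2.63-fold lower (2.36 to 2.94). In members with at least 5 rule genes the log2 ratios of Flnc, Xirp2 and Nrap were -2.35, -1.66 and -1.29, in place of -1.92, -1.09 and -1.03. Ankrd1 was an exception at 1746 and 1763 CPM, a ratio of 1.01 (0.947 to 1.08). Of the 11 tested genes of the stretch list, 10 were lower, 8 of them by at least 1.5-fold, where 7.69% of all tested genes were that much lower. The list's median log2 ratio was -0.97 in members and -0.54 in ventricular-like cells, with the median of all tested genes at 0.00 and -0.01.

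Sarcomere and energy genes were lower by smaller amounts. Of all tested genes 49.5% were lower, and 7.69% were lower by at least 1.5-fold. Of the 22 sarcomere genes 18 were lower, 7 by at least 1.5-fold, with a median log2 ratio of -0.32. Actc1, cardiac actin, was at 1951 and 1128 CPM, 1.73-fold lower (1.61 to 1.85), and Myl3, a ventricular light chain, was at 784 and 439 CPM, 1.78-fold lower (1.60 to 1.99). Of the 34 nuclear-encoded respiratory chain genes 32 were lower, 7 by at least 1.5-fold, with a median log2 ratio of -0.44. Cox5b, a subunit of cytochrome c oxidase, had ratios of 0.56 in members and 0.73 in the other cells. The 13 mitochondrially encoded genes differed little, with a median log2 ratio of -0.04 and no gene 1.5-fold apart. Of 18 tested glycolysis genes 16 were lower, with a median log2 ratio of -0.41, including Hk2, a hexokinase of insulin-responsive tissues, at 193 and 97.9 CPM, 1.98-fold lower (1.57 to 2.5). Ventricular-like cells gave medians of -0.29, -0.35 and -0.43 for the sarcomere, nuclear respiratory chain and glycolysis lists.

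Several further genes were lower in PD1/PEM members. Phka1, a regulatory subunit of phosphorylase kinase in muscle, was 3.04-fold lower (2.31 to 4.03), and Pde10a, a phosphodiesterase, 2.49-fold lower (2.07 to 3.01), with a log2 ratio of -1.32 that was -1.68 in members with at least 5 rule genes. Igf1r, the receptor for insulin-like growth factor, was at 877 and 385 CPM, 2.28-fold lower (2.04 to 2.55). Ryr3, a rule gene, was 2.37-fold lower (2.16 to 2.60), and its log2 ratio of -1.25 was -1.44 in members with at least 5 rule genes. Tinagl1, a matrix protein, and Fhad1 completed the 10 lowest at 3.19-fold (2.07 to 5.01) and 3.44-fold (2.06 to 5.95) lower.

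Ion channels of repolarisation were higher in PD1/PEM members. Kcnj3 was at 348 CPM in isotype and 1206 CPM in PD1/PEM members, a ratio of 3.46 (3.07 to 3.92), against 2.07 (1.56 to 2.77) in ventricular-like cells and 1.31 in the other cells. Within cells of equal rule gene number it was at 343 and 918 CPM with 4 genes and at 364 and 1507 CPM with 5 to 7, whereas cells with 0 rule genes had 139 and 136 CPM. The Kcnj3 log2 ratio of 1.79 was 2.04 in members with at least 5 genes and 2.44 in those that met the rule after thinning. Kcnj5, the partner subunit, was at 32.1 and 34.1 CPM, a ratio of 1.06 (0.653 to 1.76). Chrm2 was at 1603 and 2740 CPM, a ratio of 1.71 (1.61 to 1.82), close to the 1.83 of ventricular-like cells. Kcnn2, a calcium-activated channel, had a ratio of 1.86 (1.52 to 2.28) and Kcnd2, a transient outward channel, 1.58 (1.42 to 1.77), with 1.0 and 0.88 in the other cells. In members with at least 5 rule genes the log2 ratios of Chrm2, Kcnn2 and Kcnd2 were 0.65, 0.59 and 0.91, in place of 0.77, 0.89 and 0.66. Of 10 tested genes of the potassium channel list 8 were higher, 6 by at least 1.5-fold, where 10.1% of all tested genes were that much higher. The median log2 ratio of that list was 0.62 in members and 0.27 in ventricular-like cells.

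The highest ratios outside the channels belonged to genes of varied function. Angpt1, the ligand of the endothelial receptor TIE2, was at 64.1 and 285 CPM, a ratio of 4.45 (3.37 to 5.97), with 2.66 in ventricular-like and 1.40 in the other cells. Slc24a2, a sodium-calcium-potassium exchanger, was at 35.4 and 158 CPM, a ratio of 4.46 (3.06 to 6.69). Egf, a growth factor, was read with 7 and 50 UMIs, a ratio of 4.90 (2.21 to 12.8), while its ratio in ventricular-like cells was 1.0 (0.476 to 2.17). Zfp521, a zinc finger regulator, had a ratio of 2.55 (2.10 to 3.12), Rnf125, a ubiquitin ligase, 4.87 (2.5 to 10.6), and Fign, a microtubule-severing enzyme, 3.30 (2.29 to 4.86). The transcription factor Tbx5 was at 158 and 277 CPM, a ratio of 1.75 (1.44 to 2.14), and Cacna1d, a calcium channel used in atria and pacemaker cells, at 35.4 and 93.3 CPM, a ratio of 2.64 (1.78 to 4.02). The log2 ratio of Cacna1d, 1.38, was 2.74 in members with at least 5 rule genes. That of Rnf125, 2.22, was 1.20 with at least 3 rule genes, that of Fign, 1.71, was 2.5 after thinning, and that of Egf, 2.21, was 1.41 by the mean of per-cell CPM.

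Immediate early genes, which are transcribed within minutes of a stimulus, were higher in PD1/PEM in members and in ventricular-like cells. Of 19 tested, 18 were higher in members, 10 by at least 1.5-fold, with a median log2 ratio of 0.67 in members and 0.78 in ventricular-like cells. Of all genes tested in members 50.5% were higher, and 10.1% were higher by at least 1.5-fold. Egr1 was at 779 and 1669 CPM, a ratio of 2.14 (1.97 to 2.33), and 2.36 in the other cells. Egr3, a relative, had a ratio of 4.97 (3.14 to 8.26), and 5.56 in the other cells. Errfi1, an inhibitor of the epidermal growth factor receptor that its own signal induces, was at 125 and 373 CPM, a ratio of 2.99 (2.43 to 3.70), and 3.07 in the other cells. Apold1, an early response gene of endothelium, had a ratio of 3.07 (2.46 to 3.88), and 3.44 in the other cells. In members with at least 5 rule genes the log2 ratio of Apold1 was 2.5 in place of 1.61, and without the cells with the most UMIs that of Egr3 was 3.11 in place of 2.28. All 8 tested ERK feedback genes were higher, 4 of them by at least 1.5-fold. Haemoglobin was higher too: Hba-a1 was at 1443 and 2526 CPM in members, a log2 ratio of 0.81 that was 0.90 with at least 5 rule genes, and the 4 haemoglobin genes summed to 3335 and 5927 CPM in members and 3988 and 7370 CPM in the other cells. The part of blood RNA in these values was not tested.

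Immune genes gave few values in members. Cd274, which encodes PD-L1, had 6 UMIs in isotype, 11 in PD1/PEM and 1 in PDL1/ATZ members, or 6.63 CPM (2.43 to 14.4), 8.35 CPM (4.17 to 14.9) and 6.27 CPM (0.159 to 34.9). It was at 11.5, 12.7 and 16.8 CPM in the other cells, above the members' level in each library, and the members' intervals overlapped one another. Pdcd1, which encodes PD-1, had 0 UMIs in the members of all 3 libraries, which allows a level of up to 3.32, 2.28 and 18.8 CPM (3 counts of the total). In PD1/PEM members 7 of 10 tested genes of antigen presentation and interferon gamma response were lower, where 49.5% of all tested genes were lower. Only 1 of them, Cd74, was lower by at least 1.5-fold, at a ratio of 0.47 (0.297 to 0.738). Of all tested genes 7.69% were that much lower, close to the share in this list. B2m, the light chain of MHC class I, was at 331 and 345 CPM, a ratio of 1.04 (0.901 to 1.21). Of the 19 type I interferon genes only 5 had enough UMIs to be tested. Of these Rsad2, an antiviral enzyme, had 16 and 48 UMIs, a ratio of 2.06 (1.15 to 3.88), Ifi27l2a and Ifih1 had ratios of 1.77 and 1.60, and Stat2 was at 0.92.

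**Figure D3:**
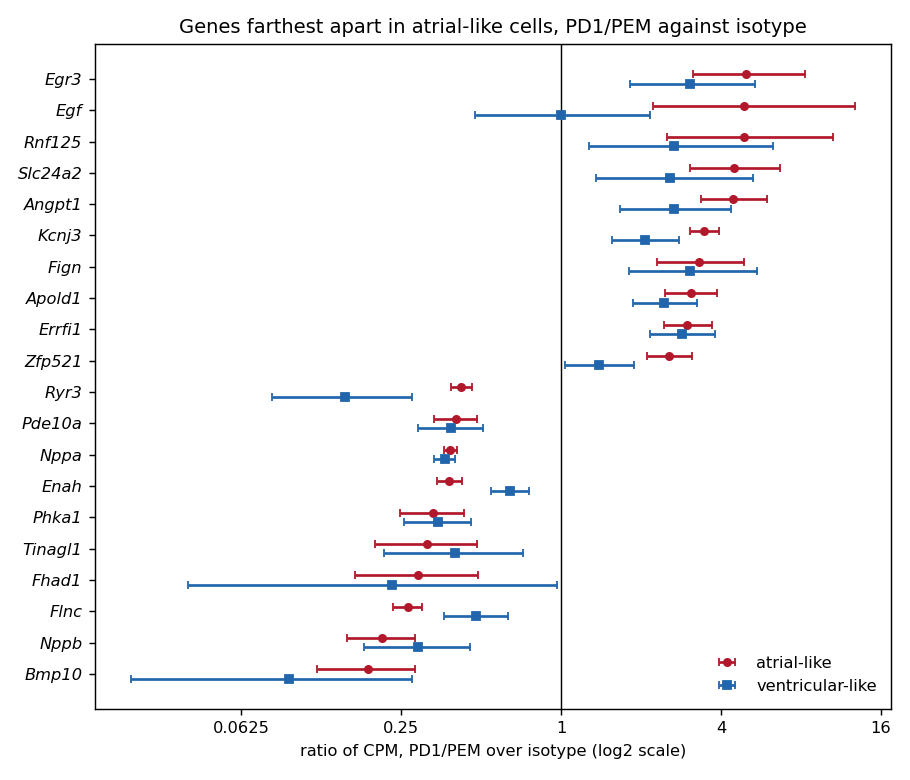
Ratio of CPM in PD1/PEM over isotype (log2 axis) for the 10 genes highest and 10 lowest in atrial-like cells (red circles), with the same ratio in ventricular-like cells (blue squares); bars are 95% conditional binomial intervals for counting error. The 10 lowest and 9 of the 10 highest genes lay on the same side of 1 in ventricular-like cells, the exception being Egf at 1.0.

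PDL1/ATZ members were compared with isotype members over 3357 genes, and this comparison rests on 61 cells. Genes of the stretch response, glycolysis and mitochondrial genome were lower, and Kcnj3, Chrm2 and cardiac transcription factors were higher. Relative to the median of all genes, the median log2 ratio of those factors was 0.47 in members and 0.50 in ventricular-like cells. Of the 3357 genes 62.8% were higher and 37.2% lower in PDL1/ATZ. At least 2-fold higher were 498 genes (14.8%) and at least 2-fold lower 245 (7.30%). Without mitochondrial UMIs in the totals the balance turned round, to 242 higher and 418 lower. The median log2 ratio of all tested genes was 0.25, and leaving mitochondrial UMIs out of the totals moved every log2 ratio by -0.30. Medians of gene lists below are therefore given relative to the median of all genes. Log2 ratios of single genes are plain unless they are said to be relative to all genes.

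The mitochondrially encoded genes were lower in members and in ventricular-like cells. All 13 were lower by at least 1.5-fold, with a median log2 ratio of -2.36 relative to all genes in members and -2.18 in ventricular-like cells. The complex I gene mt-Nd3 was at 11254 and 1587 CPM, 7.09-fold lower (6.26 to 8.07), and mt-Nd6, the single protein gene of the light strand, was 8.85-fold lower (4.90 to 17.8). Ppargc1a was at 1658 and 295 CPM, 5.63-fold lower (4.21 to 7.69), and 28.9-fold lower in the other cells, with a log2 ratio of -2.48 that was -3.25 with at least 3 rule genes. Of the 33 tested nuclear-encoded respiratory chain genes 26 were lower, 12 by at least 1.5-fold, where 15.3% of all tested genes were that much lower, and the median was -0.74 relative to all genes.

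Stretch-responsive genes were again among the lowest. Flnc had 862 UMIs in isotype and 8 in PDL1/ATZ members, at 953 and 50.2 CPM, 19.0-fold lower (9.60 to 44.1), and 6.97-fold lower in the other cells. Its log2 ratio of -4.16 was -5.13 after thinning and -3.47 with the rule applied after thinning. Nrap was 5.57-fold lower (3.72 to 8.76) and Xirp2 4.62-fold lower (3.36 to 6.53), with ratios of 0.74 and 0.68 in ventricular-like cells. After thinning the log2 ratio of Xirp2 was -3.54 in place of -2.19. Nppa was at 3403 and 1248 CPM, 2.73-fold lower (2.36 to 3.16), and 1.76-fold lower in the other cells. Of 11 tested genes of the stretch list 10 were lower by at least 1.5-fold, where 15.3% of all tested genes were that much lower. The sarcomere list had 18 of 22 genes lower, 11 by at least 1.5-fold, and a median of -0.85 relative to all genes, against -0.35 in ventricular-like cells.

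The muscarinic channel genes were higher. Kcnj3 was at 348 and 1568 CPM, a ratio of 4.50 (3.80 to 5.33) and 1.92 on the log2 scale relative to all genes, against a ratio of 2.21 (1.38 to 3.45) in ventricular-like cells and 0.46 in the other cells. Chrm2 was at 1603 and 3713 CPM, a ratio of 2.32 (2.10 to 2.55), with 2.14 in ventricular-like cells and 0.41 in the other cells. All 5 tested genes of the list were higher, 4 by at least 1.5-fold, where 32.0% of all tested genes were that much higher. In this comparison the list kept the rule gene Rgs6, which helped to choose the members. These counts are thus partly set by the rule and only describe the members. All 11 tested genes of the cardiac transcription factor list were higher, 6 by at least 1.5-fold. Gata4 was at 147 and 320 CPM, a ratio of 2.18 (1.54 to 3.03), and Tbx5 at 158 and 295 CPM, a ratio of 1.86 (1.31 to 2.61). Without the cells with the most UMIs the direction of Gata4 turned, to a log2 ratio of -0.33. The plain log2 ratio of Kcnj3, 2.17, was 1.5 with at least 3 rule genes and 3.27 in members that met the rule after thinning. The median of the factors was 0.47 relative to all genes, and 0.50 in ventricular-like cells.

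Of the 10 highest genes 5 were more than 10-fold higher in members, in ventricular-like and in the other cells. Schip1, a cytoskeletal adaptor, had 5 UMIs in isotype and 56 in PDL1/ATZ members, a ratio of 63.5 (25.7 to 203), with 19.1 in ventricular-like and 36.5 in the other cells. Stard13 had a ratio of 15.1 (10.0 to 23.3), Atf7, a transcription factor, 17.4 (9.35 to 34.5), and Rpl13a, a ribosomal protein, 15.1 (9.33 to 25.3), with 12.6, 12.2 and 17.0 in the other cells. Gse1 had a ratio of 14.7 (8.22 to 27.4). Nr3c2, the mineralocorticoid receptor, was at 127 and 709 CPM, a ratio of 5.57 (4.26 to 7.29), with 4.24 in ventricular-like and 3.21 in the other cells. Slc24a2, Abhd18, Tmtc2 and Lrrtm3, at ratios of 8.33, 7.87, 6.41 and 5.28, completed the 10 highest. The 3 libraries did not read the same symbols (1591 had no UMI in PDL1/ATZ alone and 3533 none in isotype alone), and the part of that difference in these ratios was not tested.

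PD1/PEM and PDL1/ATZ share the isotype library as their comparison, so their ratios are not independent. Kcnj3 had ratios of 3.46 and 4.50 in members, Chrm2 of 1.71 and 2.32, Tbx5 of 1.75 and 1.86, and Slc24a2 of 4.46 and 8.33. Nppa was 2.61-fold and 2.73-fold lower and Flnc 3.78-fold and 19.0-fold lower. Immediate early genes did not share a direction, with median log2 ratios relative to all genes of 0.67 in PD1/PEM and -0.39 in PDL1/ATZ, where Egr1 was 1.75-fold lower (1.37 to 2.27).

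**Figure D4:**
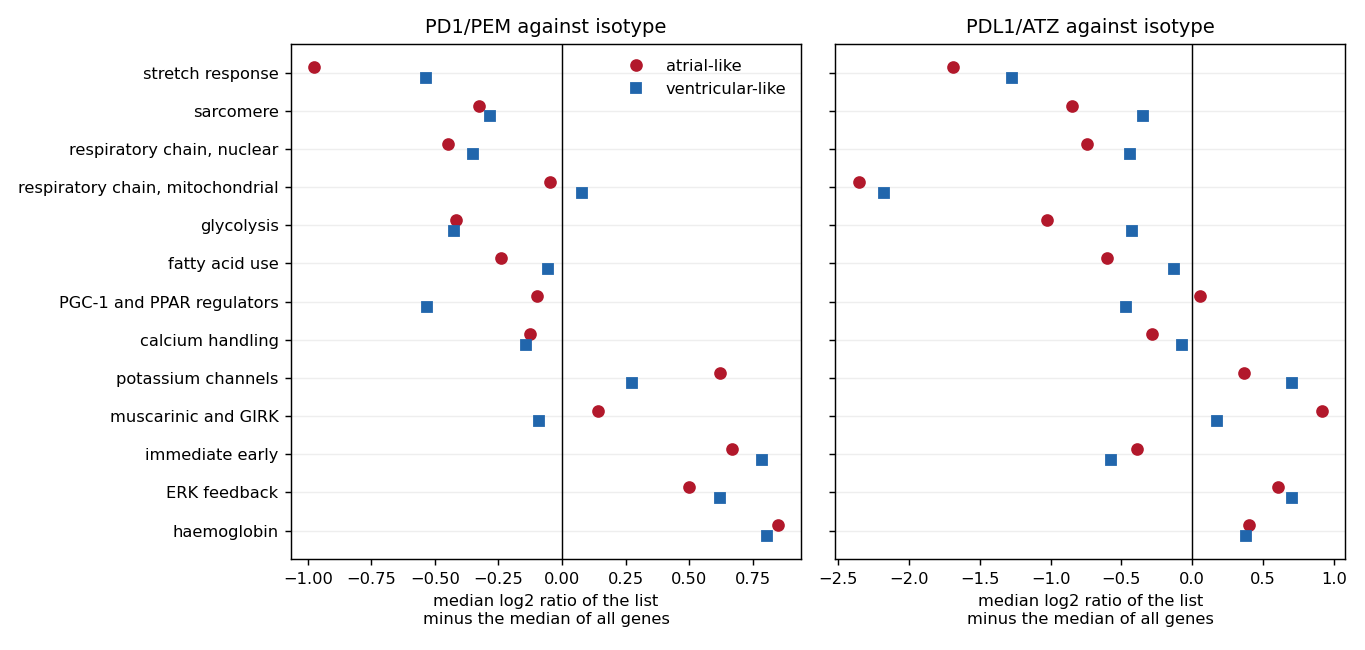
Median log2 ratio of each gene list relative to the median of all tested genes, for PD1/PEM (left) and PDL1/ATZ (right) over isotype, in atrial-like (red circles) and ventricular-like cells (blue squares); the panels have different horizontal scales. The stretch list lay at -0.97 and -1.69 in members, and the muscarinic list at 0.14 and 0.92. In both panels the muscarinic list includes the rule gene Rgs6, which helped to choose the members.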

How the data were processed

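Each library is 1 pool of 3 hearts captured with droplet chemistry. Cell Ranger and Seurat are named as tools, and mm10 as genome build, per the submitters' processing notes. Their versions and any cell filter were not given there. The files the authors deposited are UMI counts by gene and cell, with no normalization. Of 30415 symbols 29240 matched GENCODE M21, which gave positions. The smallest and largest members held 896 and 7072 UMIs, and members had 1312, 1672 and 1579 genes at the median.

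All deposited cells were used, and no doublet caller was run; cells with markers of another class or with the most UMIs were instead left out in alternatives. Summed UMIs of each class of cells were expressed as CPM. Log2 ratios have a pseudocount of 0.5 UMIs, and genes needed 50 UMIs over both sides. Symbols without UMIs in either library over all cells were left out of a comparison. Intervals are exact (Poisson for levels, Clopper-Pearson for shares, conditional binomial for ratios), at 95%, and cover counting error only. With 1 library per group no test was possible and no gene list was tested. Genes at least 2-fold apart were counted, or 1.5-fold within the lists.

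Named genes were the 7 rule and 5 held-out genes, the 10 highest and 10 lowest of each comparison by the interval bound nearest no difference, up to 4 members of each list described, Cd274 and Pdcd1. Unnamed gene models, haemoglobin, Xist, Tsix and Y-linked genes were not ranked. Cd74, Kcnj5, Ankrd1, Stat2, mt-Nd3 and some other genes set beside these were named after their values were seen. The members and lists were chosen with earlier results of these data known. Python 3.11.15, numpy 2.4.6, scipy 1.17.1, pandas 2.3.3 and matplotlib 3.10.9 were used, and the ratio step was tested on simulated data. Alternatives are described at the end.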

Additional observations from a re-analysis of the deposited data

Results flagged for a closer look

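Tbx5, the atrial transcription factor, had opposite directions in the classes of cardiomyocytes. Between isotype and PD1/PEM it had 143 and 365 UMIs in members, a log2 ratio of 0.81 (ratio 1.75, 1.44 to 2.14), and 30 and 27 UMIs in ventricular-like cells, a log2 ratio of -0.85 (ratio 0.56, 0.318 to 0.966). The number of rule genes per member differed between these libraries, and the log2 ratio was 0.67 in members with at least 5 rule genes and 0.42 in members that met the rule after thinning. The difference between the classes was not tested.

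Acadm, the medium-chain enzyme of fatty acid oxidation, had 128 and 12 UMIs in isotype and PDL1/ATZ members, a log2 ratio of -0.86 (ratio 0.53, 0.268 to 0.962), and 61 and 22 UMIs in ventricular-like cells, a log2 ratio of 0.81 (ratio 1.72, 1.01 to 2.85). Without the cells with the most UMIs the direction in members turned, to a log2 ratio of 0.15. This difference was not tested either. Of the genes tested in both classes, 6 of 3959 for PD1/PEM and 8 of 2032 for PDL1/ATZ were at least 1.5-fold apart in opposite directions with both intervals clear of 1.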

How the results depend on the processing

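No paired analysis was possible because each group is 1 library, and there was no replicate to leave out.

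Shares of members in isotype, PD1/PEM and PDL1/ATZ were 9.09%, 10.7% and 1.45% with at least 3 of 7 genes, 0.831%, 2.41% and 0.25% with at least 5, 2.48%, 4.44% and 0.266% without the cells with the most UMIs, and 0.777%, 1.08% and 0.304% after thinning. In isotype and PD1/PEM they were 6.46% and 9.79% among cells with at most 25% mitochondrial UMIs, 2.16% and 3.65% among those above (chosen after seeing the data), and 1.21% and 2.55% without cells with 3 markers of another class, which left 10, 4 and 3 members.

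The median log2 ratio of the 5 held-out genes over ventricular-like cells was 0.52, 0.59 and 0.56. Against all cells that are not members it was -0.012, 0.32 and -0.45. In isotype it was 0.32 with at least 5 genes, 0.63 with at most 25% mitochondrial UMIs and 0.70 with the rule applied after thinning (chosen after seeing the data). In PD1/PEM it was 1.43 without cells with markers of another class and 0.75 with the rule after thinning. In PDL1/ATZ it was 0.94 and, without the cells with the most UMIs, 0.025.

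For PD1/PEM, 133 and 73 of 5670 tested genes were at least 2-fold higher and lower. Without cells with markers of another class they numbered 4 and 1 of 34. At a minimum of 10 UMIs they numbered 666 and 494 of 11414, and at 200 UMIs 28 and 16 of 1757. After thinning there were 52 and 42 of 2138, and with the rule after thinning 44 and 30 of 1156. With at least 5 genes 47 of 2728 were lower. For PDL1/ATZ, 498 and 245 of 3357 tested genes were at least 2-fold higher and lower. They numbered 129 and 95 of 1037 with at least 5 genes and 5 and 11 of 27 without cells with markers of another class. Without mitochondrial UMIs in the totals they numbered 242 and 418 of 3357. At 10 UMIs there were 2429 and 710 of 9104, and at 200 UMIs 75 and 76 of 708. After thinning there were 151 and 113 of 1126, and with the rule after thinning 68 and 64 of 443. Higher genes numbered 1191 of 6363 with at least 3 genes and 292 of 2261 with at most 25% mitochondrial UMIs. They numbered 263 of 1650 without the cells with the most UMIs and 304 of 3357 scaled by the median of gene ratios. Fewer UMIs per side leave fewer genes to test: the 61 PDL1/ATZ members gave 3357 genes, against 5670 for PD1/PEM.

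The log2 ratio of Pam in PD1/PEM was 0.41 without cells with markers of another class. In PDL1/ATZ that of Pam was -0.37 with at least 3 genes, -0.093 with at most 25% mitochondrial UMIs, -0.28 without the cells with the most UMIs, -0.15 without mitochondrial UMIs, -0.072 by the median of gene ratios, -0.086 after thinning and -0.033 by the mean of per-cell CPM. Fgf12 was at -0.12 with at least 3 genes and Myl4 at 0.0012 with the rule after thinning, and without the cells with the most UMIs Gata4 was at -0.33 and Acadm at 0.15. The causes were not tested. In all, 55 genes were recomputed for PD1/PEM and 42 for PDL1/ATZ. None of the others whose interval kept clear of 1 changed direction in an alternative that gave a value. For the 54 and 37 others, 503 and 301 values stayed within the interval of the ratio and 82 and 99 did not.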
